A study of Mus musculus with 6 samples.

Results

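The natriuretic peptide system of the heart was examined through 9 genes: the peptides Nppa, Nppb and Nppc, the receptors Npr1, Npr2 and Npr3, and the enzymes Corin, Furin and Mme that process or degrade the peptides. The array annotation tied 12 probe sets to 1 of these genes alone, of 45037 tested probe sets, and the 9 genes stood among 18193 named genes. They were chosen with the difference between the groups known, in particular the opposite signs of Nppa and Nppb, so their differences are described here without a test.

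RNA came from the left ventricular apex of 6 female littermate mice aged 8 weeks, of mixed C57B6 and B6129 background, with 1 Affymetrix array per mouse. The 3 PTIP KO mice (called knockout) had 1 floxed and 1 null Paxip1 allele, the gene that encodes PTIP, and a transgene expressing Cre recombinase fused to a modified estrogen receptor from the cardiac alpha myosin heavy chain promoter. The 3 PTIP+ mice (called control) had 1 floxed and 1 wild-type Paxip1 allele, with no Cre transgene named in their labels. All 6 mice received tamoxifen at 20 mg/kg and the hearts were taken at 5 days, although the labels also speak of treatment over 5 days. If the controls lacked the transgene, which their labels do not state, its effect cannot be told apart from that of the deletion. The null allele, which does not depend on the recombinase, was also in the knockout mice alone. Its effect, in any cell, cannot be told apart from that of the deletion either. The promoter directs the recombinase to cardiomyocytes, while the apex also holds other cells. Precision is limited by there being 3 mice in each group, and p-values given for other genes set the group difference against the spread between mice within groups.

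ANP and BNP, the products of Nppa and Nppb, are hormones that cardiac muscle secretes when its wall is stretched. They are made as longer precursors: corin, a membrane serine protease of cardiomyocytes, cuts pro-ANP, and furin, a convertase of the secretory pathway, cuts pro-BNP. Both hormones bind the guanylyl cyclase receptor Npr1 and raise cyclic GMP, which lowers blood pressure and promotes sodium excretion. The adult ventricle makes little Nppa compared with the atria, and both peptide genes are widely used as markers of ventricular stress.

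Nppa and Nppb lie next to each other on chromosome 4 in the same orientation, with no other listed gene between them. The RefSeq gene models (GRCm38.p6) placed Nppb at chr4:147985786-147987205 and Nppa at chr4:148000722-148002074, and the transcript starts used below were 14822 bases apart. The 250 bases before each start are printed from RefSeq to show the motif matches of Nppa and Nppb. Any link between these matches and the opposite signs of the genes was not tested. Capitals mark matches, on either strand, to the T-box motif AGGTGT, the Nkx motif TNAAGTG, the GATA motifs AGATAA and AGATAG and TGATAA and TGATAG, the MCAT motif GGAATG and the TATA motif TATAAA.
Nppa, chr4:148000472-148000721, plus strand: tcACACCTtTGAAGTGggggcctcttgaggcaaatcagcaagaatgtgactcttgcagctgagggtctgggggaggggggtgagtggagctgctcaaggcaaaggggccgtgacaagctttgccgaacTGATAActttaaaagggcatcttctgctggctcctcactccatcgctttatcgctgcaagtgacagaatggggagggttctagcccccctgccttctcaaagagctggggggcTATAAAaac
Nppb, chr4:147985650-147985899, plus strand: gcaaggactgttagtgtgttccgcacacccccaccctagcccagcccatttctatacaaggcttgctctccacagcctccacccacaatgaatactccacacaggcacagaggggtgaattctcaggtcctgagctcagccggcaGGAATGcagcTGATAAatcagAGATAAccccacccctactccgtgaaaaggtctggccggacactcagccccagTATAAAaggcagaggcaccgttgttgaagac
The Nppb start used here lies 114 bases inside the Nppb gene model, so the window overlaps the beginning of that model.

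The Nppa window held a T-box match 248 to 243 bases before the start, an Nkx match 241 to 235 bases before it and a GATA match 122 to 117 bases before it. The Nppb window held no T-box or Nkx match. It held an MCAT match 105 to 100 bases before the start, followed by GATA matches at 95 to 90 and 84 to 79 bases. No marked matches overlap. Of 32841 windows of the same length in the RefSeq promoter table, 11.8% held the T-box motif, 10.1% the Nkx motif, 26.5% a GATA motif, 6.4% at least 2 GATA matches, 12.6% the MCAT motif and 12.4% the TATA motif. A CArG box, the element of serum response factor, was searched only in its strict form CCWWWWWWGG, where W is A or T. That form was in neither window and in 1.47% of all. The Nppa window holds ctttaaaagg, which departs from it by a T in place of a C. Such near matches were not searched, so the windows are not shown to lack the element. These are letter matches and not measured binding sites.

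The labels were first checked on Paxip1. Its probe set of largest difference, 1423303_at, read 6.34, 5.90 and 5.90 in knockouts 1, 2 and 3 against 7.80, 7.71 and 8.10 in the controls. The difference was -1.83 on the log2 scale of all values given here. The 2 groups did not overlap on any of its 4 probe sets, and 3 of them passed limma at an adjusted p under 0.05. Its brightest, 1434363_x_at, differed by -0.95 and did not pass (limma adjusted p = 0.106). Which exons the Cre removes is not in the labels, so a probe set outside them would be no check. Cardiomyocyte markers were bright in every mouse, and all 9 lay above the median probe set mean of 5.19. Of the ventricular markers, Myl2 and Myl3 were bright and Hand1 was dim. Control 1 stood apart on the first principal component (28.9% of the variance) and had the largest 3' to 5' actin difference, at 1.85 against 1.17 to 1.64 in the other mice.

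Among the peptide genes, Nppb was lower and Nppa was higher in the knockout ventricles, and Nppc was dim in both groups. Nppb (probe set 1450791_at), the BNP gene, read 9.90, 10.64 and 10.92 in knockouts 1, 2 and 3 and 11.71, 12.12 and 11.69 in controls 1, 2 and 3. All knockout mice lay below all controls, with a gap of 0.77 between the groups, and knockout 1 was the lowest. The mean was 10.49 ± 0.52 (SD, n = 3) against 11.84 ± 0.24 (SD, n = 3), a difference of -1.35 (SE 0.26), or 2.55-fold lower. For scale, 57 of 18193 genes (0.313%), Nppb among them, had a difference of at least this size in either direction. Nppb was chosen with its difference known, so nothing is read from this share.

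Nppa (probe set 1456062_at), the ANP gene, read 12.11, 12.74 and 12.71 in knockouts 1, 2 and 3 and 11.85, 12.17 and 11.91 in controls 1, 2 and 3. Knockouts 2 and 3 were above every control, while knockout 1 lay below control 2, so the groups overlapped. The mean was 12.52 ± 0.36 (SD, n = 3) against 11.98 ± 0.17 (SD, n = 3), a difference of 0.54 (SE 0.19), or 1.45-fold higher. A difference of this size or more was seen in 4.01% of genes, which is also given for scale only. In bulk tissue, less RNA per cell and fewer cells of a type cannot be told apart, for this and every later value.

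**Figure D1:**
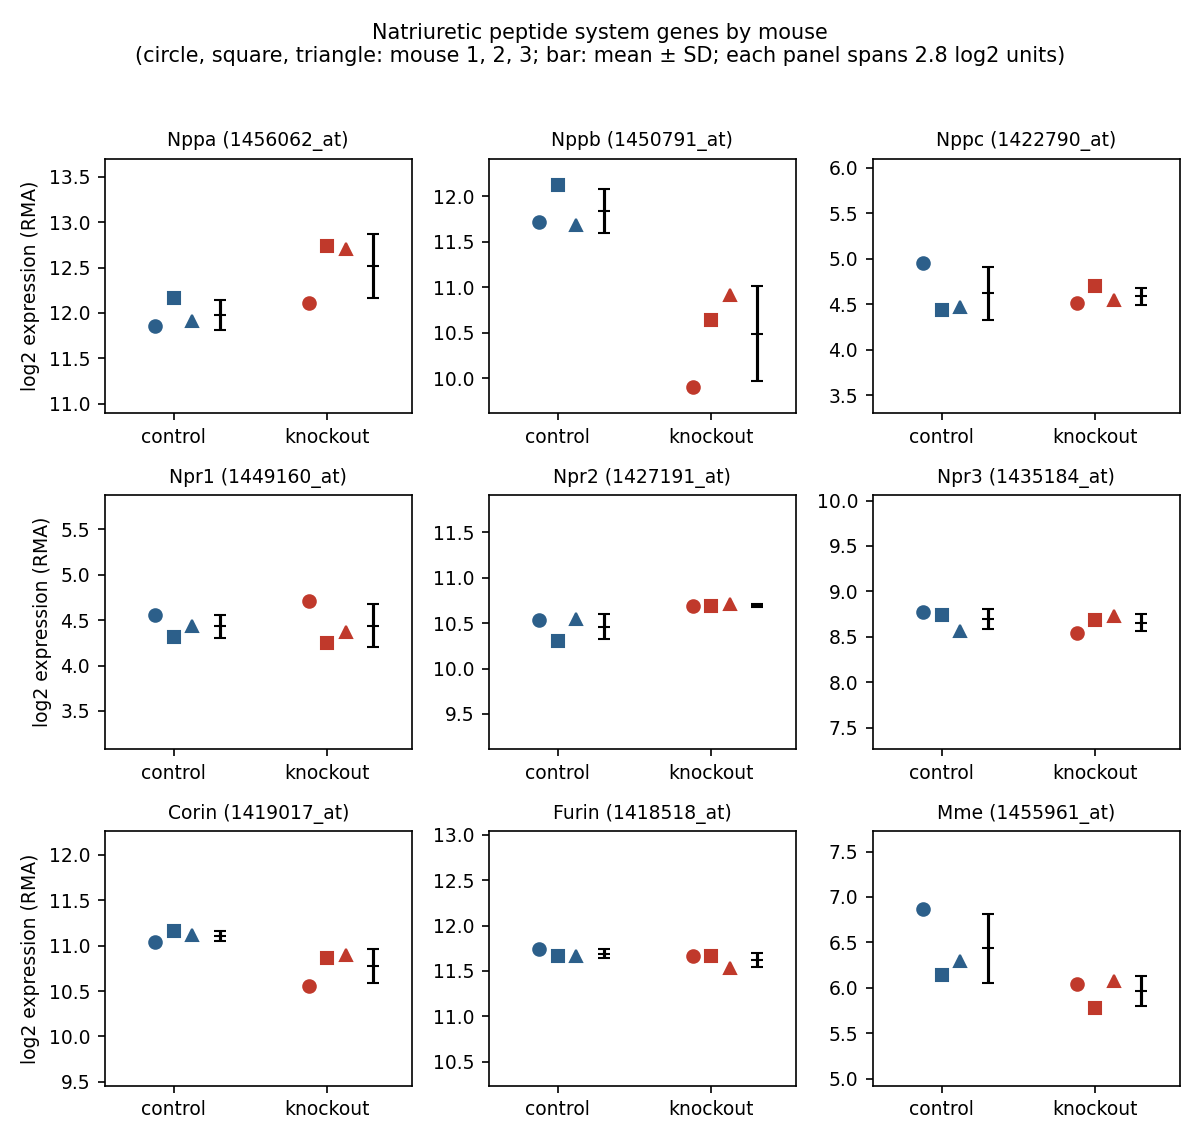
Log2 expression of the brightest probe set of each of the 9 genes, with a point per mouse (blue control, red knockout) and bars of mean ± SD (n = 3 each); each panel spans the same height on its own level. The knockout points lie below the controls for Nppb, Corin and Mme and above them for Npr2, and the groups overlap in the other 5 panels.

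The genes were chosen for opposite signs, so the difference between them within a mouse had to separate the groups and is given as a description. Nppa minus Nppb was 2.20, 2.10 and 1.79 in the knockouts against 0.14, 0.05 and 0.22 in the controls, with 1.89 between the group means. This quantity compares probe sets of different genes, so only its change between mice can be read and not its size. Knockout 1 had the lowest Nppb of all mice, -1.94 from the control mean, with Nppa at 0.13 from it. Knockouts 2 and 3 were at -1.20 and -0.92 for Nppb and at 0.76 and 0.73 for Nppa. Leaving out any single mouse gave differences from -1.57 to -1.06 for Nppb and from 0.43 to 0.74 for Nppa, and the sign for Nppb is fixed by the lack of overlap.

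**Figure D2:**
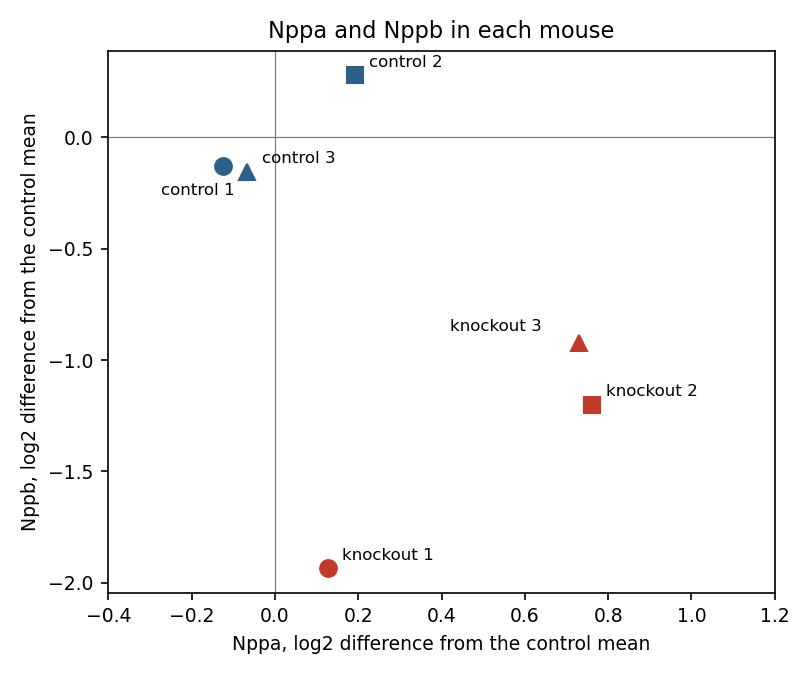
Each mouse's Nppa (horizontal) and Nppb (vertical) as log2 differences from the control mean, with red points for knockout and blue for control mice. Knockouts 2 and 3 sit at higher Nppa and lower Nppb, knockout 1 has the lowest Nppb with Nppa near the controls, and the 3 controls lie close to the origin.

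Nppc (chr1:86666293-86670573) encodes CNP, a peptide made mainly by endothelium and growth plate cartilage rather than cardiac muscle. It read from 4.44 to 4.96 in all mice, below that median. Its difference was -0.04 (SE 0.16) and changed sign without control 1 (0.13), which had the highest value.

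Among the receptor genes, Npr2 was slightly higher in the knockout mice. Npr1 (chr3:90450591-90465928), the shared receptor of ANP and BNP, had a dim probe set that read 4.71, 4.24 and 4.37 in the knockouts against 4.56, 4.31 and 4.43 in the controls. Its difference was 0.01 (SE 0.15), and at this signal the array says little about the receptor. Npr2 (chr4:43629015-43651437), the guanylyl cyclase receptor of CNP, was bright and read 10.69, 10.68 and 10.72 against 10.54, 10.30 and 10.54. All knockouts were above all controls by at least 0.14, and the difference was 0.24 (SE 0.11).

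Npr3 (chr15:11839896-11907837), the clearance receptor that takes up natriuretic peptides and lacks a cyclase domain, had 3 probe sets that disagreed. The brightest, 1435184_at, read 8.55, 8.69 and 8.73 in the knockouts against 8.77, 8.74 and 8.56 in the controls, a difference of -0.04 (SE 0.11) with overlapping groups. Probe set 1448024_at differed by -0.44 (SE 0.32) and 1450286_at by 0.22 (SE 0.18), both also overlapping. No direction for Npr3 can be read from these 3.

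Of the enzymes, Corin and Mme were lower in the knockout mice and the difference of Furin was smaller than its SE. Corin (chr5:72299948-72504540), the activator of pro-ANP, read 10.56, 10.86 and 10.89 in knockouts 1, 2 and 3 and 11.04, 11.16 and 11.11 in the controls. The groups did not overlap, by a gap of 0.15, and knockout 1 was lowest as it was for Nppb. The difference was -0.34 (SE 0.13), or 1.26-fold lower, and the difference of Nppa, the gene of its substrate, had the opposite sign. Furin (chr7:80389194-80405441), the convertase of pro-BNP, read 11.67, 11.66 and 11.53 against 11.74, 11.66 and 11.67. Its difference was -0.07 (SE 0.10) and the groups met at their edges.

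Mme (chr3:63295211-63383713) encodes neprilysin, the membrane peptidase that degrades ANP and other peptides. Its brighter probe set 1455961_at read 6.04, 5.78 and 6.08 in the knockouts against 6.87, 6.15 and 6.29 in the controls, a difference of -0.47 (SE 0.20). Control 1 was the highest, and without it the difference was -0.25. The second Mme probe set, 1422975_at, was dim, at 3.08, 3.08 and 3.73 against 4.06, 4.15 and 4.21, and differed by -0.85 (SE 0.19). The groups did not overlap on either probe set of Mme.

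Counted over the 9 genes by their brightest probe sets, 3 were higher and 6 lower, and 4 had groups that did not overlap (Nppb, Npr2, Corin and Mme), against 16% of all genes. By probe set, 5 of 12 did not overlap, against 14.4% of all probe sets. No probe set of the 9 genes passed limma at an adjusted p under 0.05, a threshold that 0.191% of all probe sets passed. Nothing is read from these counts, since the genes were chosen on this contrast. The signs of Nppa and Furin, whose groups overlapped, were the same in all 11 alternatives tried, and those of Nppc, Npr1 and Npr3 were not. The alternatives reuse the same arrays, and the replicate block cannot change a difference in this balanced design. A kept sign is therefore a description and no added support.

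Genes beside the pair on chromosome 4 were measured to see how far differences of this size extended. Of the 8 listed genes on each side, 9 had a probe set. None passed limma or had an unadjusted p under 0.05, where 0.286% and 9.27% of all genes did. The groups did not overlap for 3 of the 9, against 16% of all genes, and all 3 were higher in the knockout mice. The mean level of the 9 was 7.79 to 7.831 in the knockout mice and 7.716 to 7.787 in the controls, so the groups all but met. Next to Nppb, 2510039O18Rik differed by 0.14 (SE 0.11), and next to Nppa, the chloride-proton exchanger gene Clcn6 differed by -0.03 (SE 0.15). Mfn2, of mitochondrial fusion, had the smallest p and differed by 0.15 (SE 0.10, limma adjusted p = 0.734). The largest difference among the 9 was 0.35, of Mad2l2, and their median was 0.13, against 0.02 over all genes.

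**Figure D3:**
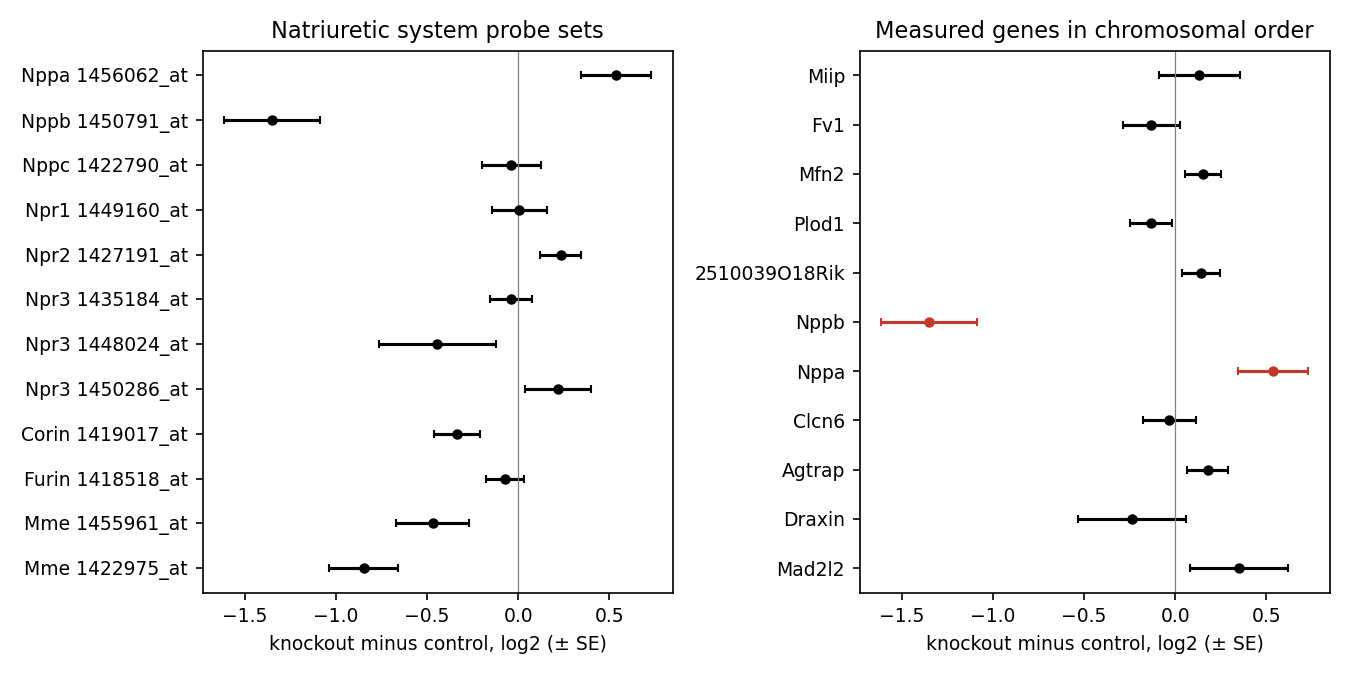
Knockout minus control on the log2 scale with limma's SE (horizontal), for the 12 probe sets of the natriuretic system (left) and for Nppb and Nppa among the measured genes beside them in chromosomal order (right, the pair in red). Nppb at -1.35 and Nppa at 0.54, which were chosen for their differences, lie outside the range of the 9 neighbouring genes, from -0.24 to 0.35.

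Transcription factors and cofactors known to act on the peptide promoters were mostly bright, and none of 35 measured passed over all probe sets with limma, where 0.286% of all genes did. At an unadjusted p under 0.05, 7 were higher and 2 lower, against 9.27% of all genes in either direction, and the median difference was 0.06. The same 2 shares of all genes, 0.286% and 9.27%, stand beside the counts of every later list. Tbx5, a T-box factor, read 10.24, 10.26 and 10.15 in the knockouts against 9.82, 9.66 and 9.62 in the controls, with no overlap. It differed by 0.52 (SE 0.11, limma adjusted p = 0.188) and on its other probe set by 0.89. The mean of its probe sets passed at 0.70 (limma adjusted p = 0.0366, adjusted over 18193 genes instead of all probe sets). Hdac4, a histone deacetylase that restrains Mef2 factors, differed by 0.77 (limma adjusted p = 0.219). Thra, a thyroid hormone receptor, and Hif1a, a hypoxia factor, differed by -0.38 and -0.44 (limma adjusted p = 0.304 and 0.342). Its other probe sets differed by -0.74 and -0.64, and another by 0.57, with the opposite sign.

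The other listed factors that bind the T-box, Nkx, GATA, MCAT and CArG motifs searched above are given whatever their p. The T-box factors Tbx2, Tbx3 and Tbx20 differed by 0.17 (SE 0.17), -0.26 (SE 0.15) and 0.06 (SE 0.12), so the T-box genes did not share a sign. Nkx2-5, the cardiac homeobox factor of the Nkx motif, differed by 0.43 (SE 0.15). Gata4 and Gata6 differed by 0.08 (SE 0.11) and -0.24 (SE 0.15). Tead1, which binds MCAT elements, differed by 0.16 (SE 0.11), and Srf, which binds CArG boxes, by 0.38 (SE 0.12). None of these 8 passed limma, with adjusted p from 0.407 to 0.930.

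Markers of wall stress and hypertrophy, among which Nppa and Nppb are usually read, differed in both directions. None of the other 20 measured passed with limma, 2 were higher and 3 lower at an unadjusted p under 0.05, and the median difference was -0.00163. Ankrd1, a stretch-responsive muscle protein, differed by -0.68 (SE 0.16, limma adjusted p = 0.226), by -1.56 on its other probe set, and passed as the mean of both at -1.12 (limma adjusted p = 0.0393). Acta1, skeletal alpha actin, differed by -0.88 (SE 0.23, limma adjusted p = 0.290). Ccn2, a matricellular growth factor, was on the other side at 0.52 (SE 0.17, limma adjusted p = 0.404). So was Myh7, at 0.82 (SE 0.31, limma adjusted p = 0.494). It read 10.675, 10.641 and 10.646 in the knockouts against 10.307, 10.164 and 9.023 in the controls, with control 3 far below the others. Nebl, a Z-disc protein, differed by -0.27 (limma adjusted p = 0.475). Nppb thus had the sign of Ankrd1 and Acta1, and Nppa that of Ccn2 and Myh7.

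Downstream of the receptors, none of 21 measured genes of cyclic GMP signalling passed with limma, while 2 were higher and none lower at an unadjusted p under 0.05, and the median difference was 0.01. Prkg1, the cyclic GMP-dependent protein kinase of the heart and vessels, read 9.90, 10.12 and 10.01 in the knockouts against 9.65, 9.53 and 9.62 in the controls. It differed by 0.41 (SE 0.11, limma adjusted p = 0.302) with no overlap, and by 0.91 on its other probe set. Abcc4, an exporter of cyclic nucleotides, differed by 0.34 (SE 0.11, limma adjusted p = 0.387). Rgs4, a brake on G protein signalling, differed by -0.21, and Mrvi1, a substrate of the kinase, by 0.25 (limma adjusted p = 0.613 and 0.646).

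Other routes to cyclic GMP and other peptide-processing enzymes had none that passed with limma. Of 11 measured soluble and membrane cyclases, guanylins and nitric oxide synthases, 1 was lower at an unadjusted p under 0.05: Nos3, the endothelial nitric oxide synthase, at -0.54 (SE 0.18, limma adjusted p = 0.421, median of the list -0.07). The next smallest p were those of Nos2 (0.34), Guca2a (-0.16) and Gucy2c (-0.16), all dim. Of 19 measured other convertases and peptidases, none had an unadjusted p under 0.05, and the median was 0.10. Anpep, an aminopeptidase, differed by 0.36 and Pam, which amidates peptides, by 0.20. Enpep, which trims angiotensin, differed by -0.31, and Pcsk6, the convertase that activates corin, by 0.26 (SE 0.15, limma adjusted p = 0.700). Ide, which also degrades ANP, differed by -0.11 (SE 0.12).

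None of 30 measured genes of other vasoactive peptides and receptors passed with limma, and the median was -0.01. At an unadjusted p under 0.05, 2 were higher and 6 lower, against 9.27% of all genes in either direction. Agt, the angiotensin precursor, read 5.61, 5.55 and 5.53 in the knockouts against 6.11, 6.13 and 6.23 in the controls. The groups did not overlap, and the difference of -0.59 (SE 0.10, limma adjusted p = 0.109) passed with array weights (-0.63, limma adjusted p = 0.0480). Ramp1, a partner of the calcitonin-like receptor, differed by -0.99 (SE 0.25, limma adjusted p = 0.280). The angiotensin receptor gene Agtr1a differed by 0.36 and the endothelin receptor gene Ednrb by -0.42 (limma adjusted p = 0.412 and 0.443). In the list of secretory granule genes, none of 17 passed with limma, 2 were higher and none lower at an unadjusted p under 0.05, and the median was 0.02. Chgb, a granin of hormone-storing granules, read 5.56, 6.23 and 6.10 in the knockouts against 5.22, 4.31 and 4.60 in the controls, with no overlap. It differed by 1.25 (SE 0.27, limma adjusted p = 0.192) and passed with array weights (1.45, limma adjusted p = 0.0474). Rab3a, a GTPase of granule release, differed by 0.30, Syt7 by -0.34 and Vamp2 by 0.27 (limma adjusted p from 0.534 to 0.773).

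**Figure D4:**
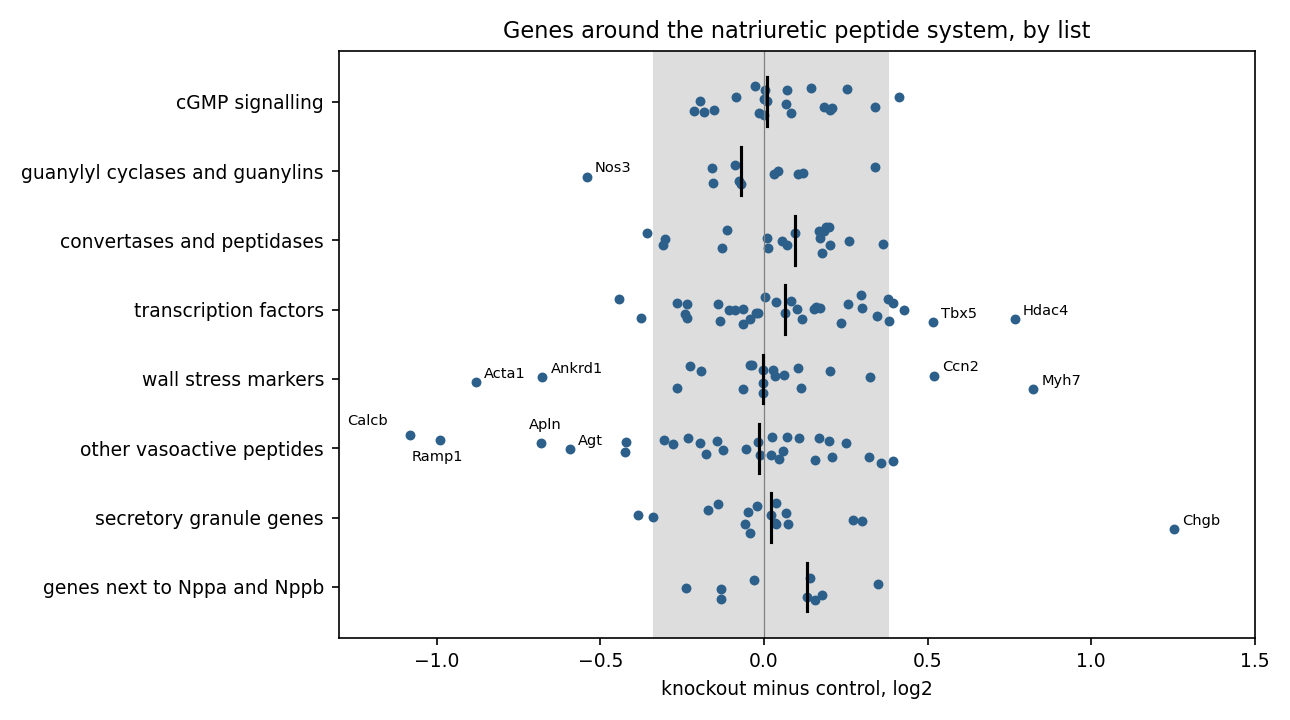
Knockout minus control on the log2 scale (horizontal) for each measured gene of 8 lists around the natriuretic system, with the list median as a black bar and the range of the middle 90% of all genes in grey (-0.34 to 0.38). Genes beyond 0.5 in either direction are named, and the list medians lie between -0.07 and 0.13.

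Atrial markers were set beside Nppa because the atria make most of the ANP of the heart. Of the 11 measured, 4 were higher and 7 lower in the knockout mice, none passed with limma, and the median was -0.02. At an unadjusted p under 0.05, 2 were higher and none lower, against 9.27% of all genes in either direction. The groups did not overlap for 3 of the 11, against 16% of all genes. Their mean level ranged from 7.32 to 7.46 in the knockout mice and from 7.11 to 7.68 in the controls. The 3 without overlap all had the direction of Nppa, while 7 of the 11 markers had the other direction. Stard10, a lipid transfer protein, read 8.98, 8.74 and 9.11 in knockouts 1, 2 and 3 against 8.00, 8.47 and 8.41 in the controls, a difference of 0.65 (SE 0.17, limma adjusted p = 0.280). Clu, the chaperone clusterin, differed by 0.28 (SE 0.10, limma adjusted p = 0.468), and Pam, the amidating enzyme of atrial granules, by 0.20 (SE 0.11, limma adjusted p = 0.647).

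The contractile and calcium genes of atrial muscle overlapped between groups. Myl7, the atrial regulatory light chain, read 7.46, 5.71 and 6.94 in knockouts 1, 2 and 3 and 8.35, 7.25 and 5.83 in controls 1, 2 and 3. Myl7 was highest in control 1, where Nppa was lowest, and lowest in knockout 2, where Nppa was highest. Control 3 was low for both genes, so the orders over the mice were not exact reverses. Myl4, the essential light chain, read 8.98, 8.87 and 8.66 against 9.70, 8.40 and 8.54, and Sln, sarcolipin, 4.39, 4.28 and 4.23 against 5.66, 3.61 and 3.77. Both were highest in control 1, the array that stood apart, and both were higher in all knockouts than in controls 2 and 3. Bmp10, a factor of atrial cells, was near the floor at 2.03 to 2.33. The part of atrial RNA in the values of Nppa was not tested.

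**Figure D5:**
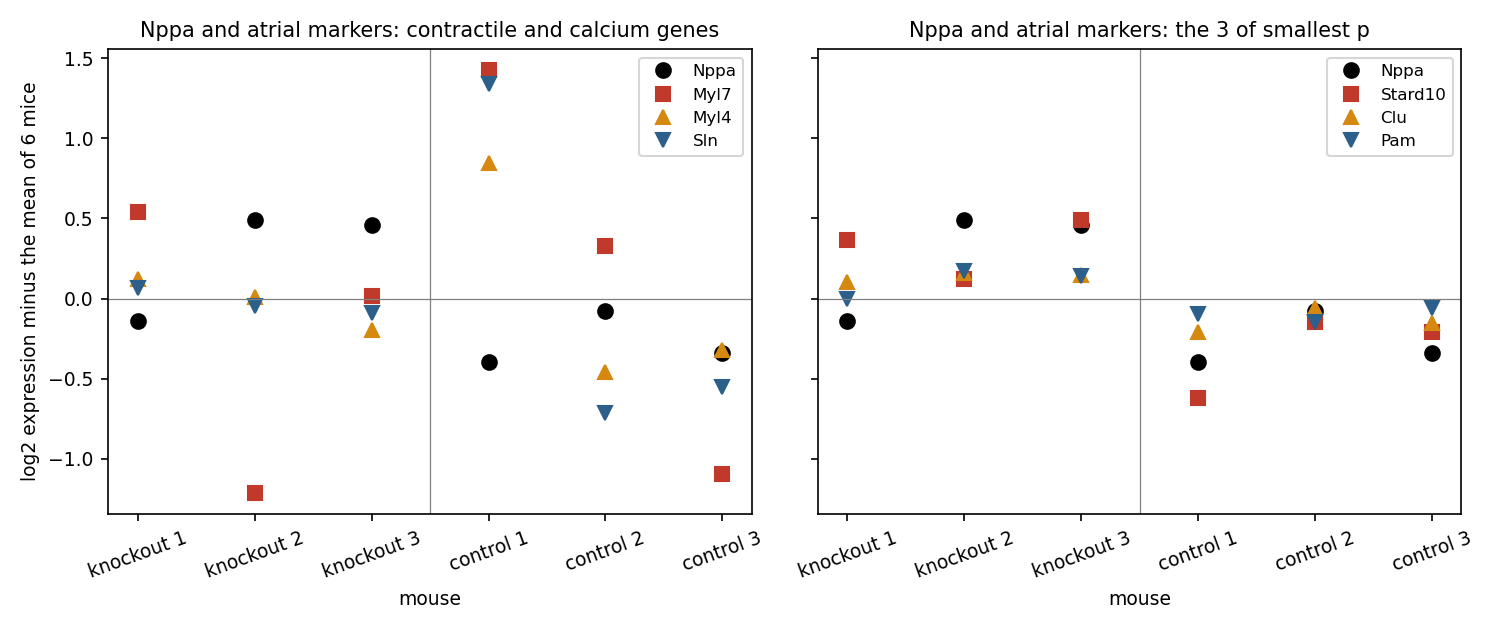
Log2 expression (vertical) in each mouse (horizontal), centred on each gene's mean over the 6 mice, for Nppa with Myl7, Myl4 and Sln (left) and for Nppa with Stard10, Clu and Pam (right). Myl7, Myl4 and Sln are highest in control 1, while Stard10, Clu and Pam are higher in all knockout than in all control mice.

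Among the cell marker lists, those of cardiomyocytes and macrophages had mean levels that did not overlap between groups. For single genes, 16% of all had groups that did not overlap. The cardiomyocyte mean was 13.111 to 13.139 in the knockout mice and 13.141 to 13.186 in the controls, so the groups all but met. Of these 9 markers 8 were lower, with a median of -0.03. The groups overlapped on each of them, and none passed limma or had an unadjusted p under 0.05. All 9 macrophage markers were lower in the knockout mice, as were 8169 of 18193 genes. Of the 9, 4 had an unadjusted limma p under 0.05, against 9.27% of all genes in either direction, and none passed. Their mean level was 8.39 to 8.88 against 8.91 to 9.08. The part of either list in the lower values of Nppb, Corin and Mme was not tested. Fibroblast markers, cells that also make Mme, ranged from 11.04 to 11.12 in the knockout mice and from 11.00 to 11.13 in the controls, and neutrophil markers from 3.69 to 4.13 and from 3.66 to 4.13. Mean levels of endothelial markers (10.22 to 10.39 against 10.09 to 10.47) and endocardial markers (8.26 to 8.40 against 8.27 to 8.47), cells that carry Npr1 and Npr3, overlapped between groups. Epicardial markers were lowest in knockout 2, at a mean of 5.25 against 6.11 to 7.02 in the other mice. Of 7 conduction system markers, 3 were higher and 4 lower in the knockout mice, with a median of -0.0053. At an unadjusted p under 0.05, 2 were higher and 1 lower, against 9.27% of all genes in either direction, and none passed limma. Cntn2, a cell adhesion protein of the conduction system, read 6.66, 7.99 and 8.16 in knockouts 1, 2 and 3 against 6.86, 6.16 and 6.94 in the controls, with overlap. Its difference was 0.95 (SE 0.40, limma adjusted p = 0.549), and those of its other probe sets were 0.83, 0.83 and 0.04. As for Nppa, knockouts 2 and 3 were above every control and knockout 1 was not. The conduction markers Gja5, which was dim, and Tbx3 had the opposite sign to Cntn2, at -0.47 (SE 0.25) and -0.26 (SE 0.15). The sodium channel gene Scn10a differed by 0.45 and the homeobox gene Irx3 by -0.27 (limma adjusted p = 0.361 and 0.542), both without overlap, and the part of these cells in the values of Nppa was not tested. Smooth muscle and nerve markers had medians of 0.11 and 0.12, and all 5 adipocyte markers measured were dim.

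The genes closest to each peptide gene over the 6 mice were taken by the root mean square difference of centred log2 values, among 11075 bright named genes. Nearest to Nppb were Kcne1 (0.25), a potassium channel subunit, Nabp1 (0.27), a single-strand DNA binding protein, the transporter gene Flvcr2 (0.27), Ankrd63 (0.27) and Upp1 (0.27), a uridine phosphorylase, against a spread of Nppb itself of 0.75. Each had all knockouts below all controls, where 19.2% of genes above the median had groups without overlap in either direction. They were chosen for closeness to Nppb, whose groups did not overlap, so nothing is read from this. Nearest to Nppa were Tnfrsf19 (0.10), N4bp2l1 (0.11), the autophagy gene Uvrag (0.11), the malic enzyme gene Me2 (0.11) and Pcdhb7 (0.12), against a spread of Nppa of 0.35. With 6 mice and so many genes, close profiles are found for many genes, and the lists describe these arrays only.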

How the data were processed

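The deposited values are log2 expression values per probe set, made by the authors with RMA (background correction, normalization between arrays and probe summary), per the submitters' processing notes (version: not given in the sources used here). The log base follows from their range of 1.36 to 14.3. Such values show no change in total RNA, and differences of dim probe sets are compressed. After leaving out 64 control probe sets, 45037 were tested, of which 34945 had 1 gene in the platform annotation, 932 had several and 9160 had none listed; symbols were updated by Entrez identifier (34741 found) through RefSeq genes of GRCm38.p6. Each gene was represented by its brightest probe set. The comparison used R 4.3.3 with limma 3.58.1 (lmFit, eBayes, two-sided, group only, Benjamini-Hochberg over all probe sets, threshold 0.05), tested first on simulated data. The 9 genes, the lists and the tests were chosen with earlier results of these data known. Named are every probe set of the 9 genes, up to 4 genes of smallest p per list with any that passed, the nearest neighbours on chromosome 4 and the 5 nearest profiles; motif factors, Myh7, Ide and the contractile atrial genes were named for their roles, and other atrial and conduction markers for a small p or groups without overlap, after their values were seen. Alternatives tried included array weights, a robust prior, a variance trend, a filter on dim probe sets, 2 renormalizations, the replicate number as a block, subsets of arrays and means of probe sets. The fit on means of probe sets adjusted p over the 18193 genes. Same-numbered mice did not deviate together (correlations of -0.15, -0.08 and -0.01), so the numbers were not taken as pairs.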

Additional observations from a re-analysis of the deposited data

How the results depend on the processing

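Over the whole table, limma called 86 probe sets (4083 at an unadjusted p under 0.05). The count was 185 with a variance trend, 204 with array weights, 196 at an adjusted p under 0.1 and 51 with a robust prior. With the replicate number as a block, which did not pair the mice, it was 0 (3392 at an unadjusted p under 0.05), and 0 in the 4 arrays whose description numbers share leading digits, with 1 knockout mouse among them (2348). With 1 mouse left out it ranged from 0 to 21. Dropping knockout 1 or control 2 left 0 calls (3790 and 3532 at an unadjusted p under 0.05), dropping knockouts 2 or 3 left 1 and 7, and dropping controls 1 or 3 left 21 and 18. Nppb moved beyond its replicate SD in those 4 arrays alone, to -0.92, and Nppa in none of its 11 alternatives. Of 120 list counts under an alternative, 115 stayed at 0. The mean of all probe sets gave 1 called gene each among transcription factors, wall stress markers and vasoactive peptides (Agt again). That fit adjusted p over 18193 genes and not over 45037 probe sets, so its adjusted p are not comparable with the others. Agt kept its difference of -0.59 there, with a limma adjusted p of 0.0395 against 0.109. Array weights gave 1 each among vasoactive peptides and secretory granule genes, and the cause was not tested. Low signal limits Nppc, Npr1 and the second Mme probe set.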
